A study of Mus musculus with 4 samples.

Results

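The smooth muscle contractile genes described here are Acta2, Tagln, Actg2, Myh11, Cnn1, Myl9, Des and Lmod1, 8 of the 32285 genes counted in single cells of the embryonic mouse nose. They were taken by symbol. The set was chosen by a readout of these same libraries, a difference in Acta2 and Tagln between genotypes in mural cells, so their values in that contrast, fitted changes and threshold counts included, are given as a description, with no p-value and as support for nothing. Cells were kept when at least 500 genes were detected and at most 10% of their unique molecular identifiers (UMIs, one per captured transcript molecule) were mitochondrial, which left 13739 of 15863 barcodes.

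Whole noses of embryonic day 14.5 mice were dissociated, frozen, thawed and sequenced by droplet 3' single-cell RNA-seq, with 2 control and 2 mutant libraries. The mutants carry Sox10-cre with floxed Yap and Taz alleles. The series text gives 1 floxed and 1 wild-type copy of Yap and both copies of Taz floxed, while the sample labels give no zygosity. The controls are C57Bl/6J wild-type mice in the labels and mice homozygous for both floxed genes, with no Cre named, in the series text, so the control genotype is not settled. Sox10-cre recombines in neural crest derivatives and in other Sox10-expressing cells, and which of the cells analysed here had recombined is not known. The labels do not say that each library came from its own embryo, and the p-values below measure only the spread between 2 libraries a group.

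Smooth muscle contracts when myosin II pulls on thin filaments built on actin. Acta2 (vascular) and Actg2 (enteric) encode the smooth muscle actins and Myh11 the smooth muscle myosin heavy chain. Myl9 encodes a regulatory light chain. Tagln (transgelin) and Cnn1 (calponin) bind actin filaments, Lmod1 (leiomodin) nucleates them, and Des (desmin) is the intermediate filament protein of muscle. In the vessel wall these genes belong to mural cells, with smooth muscle cells high in them and pericytes on capillaries mostly low. Des is an exception, since pericytes express it too. Several are targets of SRF and its myocardin-family cofactors, which act through a DNA element called the CArG box, and the TEAD factors that YAP and TAZ bind use the MCAT element.

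The promoter sequences of 2 actin-myosin members and of desmin are shown because the genotype contrast placed Acta2 and Myl9 on one side and Des on the other. Each runs from 250 bases before the annotated start to 50 after it, 5′ to 3′ on the gene's own strand, from RefSeq on GRCm38.p6. Acta2 lies at chr19:34255324-34255623 on the minus strand, Myl9 at chr2:156775214-156775513 on the plus strand and Des at chr1:75360042-75360341 on the plus strand. Capitals mark the MCAT core, searched as CATTCC on both strands, in Acta2, and the strict CArG box in Myl9. The strict CArG box was searched as CCWWWWWWGG, where W is A or T.
Acta2: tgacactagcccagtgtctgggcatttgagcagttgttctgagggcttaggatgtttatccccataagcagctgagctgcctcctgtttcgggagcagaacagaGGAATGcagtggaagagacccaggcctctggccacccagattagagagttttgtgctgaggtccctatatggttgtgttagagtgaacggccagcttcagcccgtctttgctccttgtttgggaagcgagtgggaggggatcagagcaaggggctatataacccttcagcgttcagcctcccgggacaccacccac
Myl9: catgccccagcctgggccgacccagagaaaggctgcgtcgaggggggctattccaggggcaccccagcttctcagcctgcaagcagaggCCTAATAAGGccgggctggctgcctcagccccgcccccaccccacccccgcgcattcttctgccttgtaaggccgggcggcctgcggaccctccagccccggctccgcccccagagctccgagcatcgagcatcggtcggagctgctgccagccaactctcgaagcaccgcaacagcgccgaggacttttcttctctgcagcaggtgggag
Des: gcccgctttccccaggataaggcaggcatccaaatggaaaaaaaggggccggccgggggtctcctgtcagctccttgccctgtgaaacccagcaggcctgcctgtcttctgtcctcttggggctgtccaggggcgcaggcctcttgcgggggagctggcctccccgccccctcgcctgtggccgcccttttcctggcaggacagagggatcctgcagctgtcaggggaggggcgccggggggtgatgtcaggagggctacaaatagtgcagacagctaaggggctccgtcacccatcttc
RefSeq windows were found for 5 of the 8 genes (Acta2, Cnn1, Myl9, Des and Lmod1). The strict CArG box was in 1 of them, Myl9, and in 1.63% of 32851 promoter windows of the same length. The MCAT core was in 2, Acta2 and Lmod1, and in 14.7% of those windows. These matches describe letters in a window only. Sites that differ from a pattern by 1 base were not searched, so a window without a match may still hold such a site.

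Cells were assigned to classes by marker genes that include none of the members. A cell entered a class with at least 3 detected markers of that class, and another class took precedence over mesenchyme. Of the kept cells, 85 and 42 were mural-gated in control libraries 1 and 2, and 61 and 69 in mutant libraries 1 and 2. Mural-gated cells made up 1.89% ± 0.275 of kept cells in controls and 1.84% ± 0.277 in mutants (SD, n = 2), a difference within the library spread (exact two-sided permutation p = 0.67, smallest possible 0.33). The 11 mural gate markers were all detected in every library, and their summed level was 2259 and 2576 CPM (UMIs scaled to a total of 1e+06 per library and class) in controls and 1569 and 1857 in mutants. Of these, 6 (Cspg4, Gja4, Heyl, Ndufa4l2, Rgs4 and Rgs5) were lower in both mutants than in both controls, and none was higher in both. Of all genes tested in mural cells 17.0% were lower in both mutants, and the gap for Cspg4 was slight, at 59.8 CPM in control 1 against 59.0 in each mutant. Of the 257 mural-gated cells, 198 also reached 3 of 9 mesenchyme markers, so the mural gate holds largely cells that read as mesenchyme too. Kept UMIs per library ran from 19767873 to 35331450, and the median mural-gated cell had 8345 to 11145 UMIs. In mural-gated cells the targeted genes did not separate the groups fully: Yap1 was at 74.2, 50.2, 53.6 and 45.0 CPM and Wwtr1, the gene for TAZ, at 136, 148, 99.2 and 152 CPM (control 1, control 2, mutant 1, mutant 2, the order used throughout). In mesenchyme-gated cells Yap1 was at 64.3, 66.1, 55.2 and 58.2 CPM, with both mutants below both controls. Wwtr1 there overlapped, at 142, 163, 144 and 155 CPM. The part of each gene that Cre removes is not given in the labels, so a 3' count may not report it.

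Across classes the members fell into unlike patterns. Acta2 averaged 1520 CPM ± 459.8 in skeletal muscle-gated cells and 979 ± 423 in mural-gated cells (SD over 4 libraries), ranges that overlapped. Chondrocytes at 62.1 ± 44.7 and mesenchyme at 58.7 ± 29.5 came next and overlapped each other. Des was at 297 ± 69.5 CPM in skeletal muscle, above 37.0 ± 23.1 in mural cells in every library, and 1.32 ± 0.174 in mesenchyme. Tagln was at 469 ± 159 CPM in mural cells and 251 ± 43.7 in skeletal muscle, again overlapping. Skeletal muscle thus ranked first for Acta2 and Des, and mural cells for Tagln.

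Myl9, Myh11, Actg2 and Lmod1 had their highest mean in mural cells. Myl9 was at 485 ± 91.6 CPM there, above the 206 ± 72.1 of glia in every library, and at 114 ± 8.27 in mesenchyme. Myh11 was at 47.1 ± 33.2 CPM in mural cells and 2.58 ± 0.468 in mesenchyme. Actg2 was at 48.8 ± 42.1 and 4.42 ± 2.15 CPM. Lmod1 was at 10.2 ± 4.08 and 2.58 ± 0.594 CPM. For Myh11, Actg2 and Lmod1 the lowest mural library overlapped the next class, so their order there is within the spread. Cnn1 had no clear peak, at 4.36 ± 2.40 CPM in chondrocytes and 4.22 ± 4.04 in mural cells. Immune-gated cells, which should lack these genes, held at most 12 UMIs of any member over 4 libraries.

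**Figure D1:**
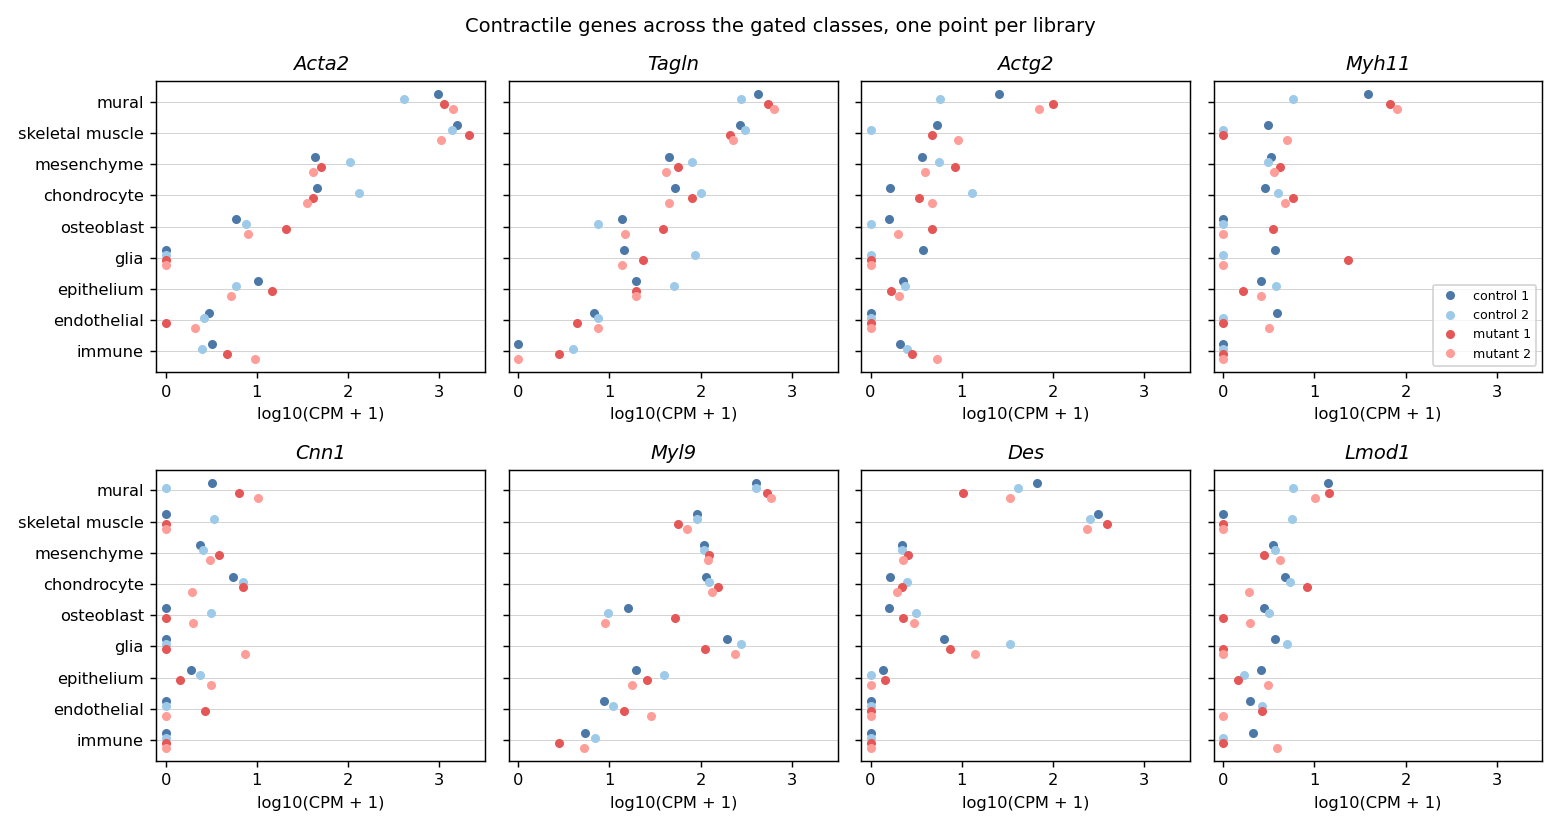
Level of each contractile gene on a log10(CPM + 1) axis for 9 gated classes, with 1 point per library. Mural and skeletal muscle cells hold the highest Acta2, Tagln and Des, while Myl9 stays near 114 CPM in mesenchyme.

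Because mesenchyme is by far the largest class, it held most UMIs of several members. Mesenchyme gave 67.9% of all Myl9 UMIs, 65.6% of Cnn1, 58.4% of Lmod1, 55.4% of Tagln and 50.6% of Actg2. For Myh11 mesenchyme gave 41.6% of UMIs and mural cells 33.9%, and for Acta2 mesenchyme gave 37.0% and mural cells 28.6%. In control 2 mural cells gave only 4.55% of Myh11 UMIs and 7.31% of Acta2, beside 31.5% to 42.6% for either gene in the other libraries. Skeletal muscle gave 57.8% of Des and 21.8% of Acta2. A level over all cells of the nose thus mixes sources that differ by gene.

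In mural-gated cells 6 of the 8 members were higher in both mutants than in both controls, 1 was lower in both and 1 overlapped. Of the 8410 genes tested there, 22.7% were higher in both mutants and 17.0% lower in both. The 6 include Cnn1, with 12 UMIs in all. Acta2 stood at 961 and 411 CPM in the control libraries, and at 1124 and 1419 in mutants, from 868, 172, 839 and 914 UMIs. The groups did not overlap, but the controls differed from each other by more than control 1 differed from mutant 1. The edgeR log2 change, mutant minus control, was 0.82 ± 0.26 (SE, n = 2 a group), and 0.36 without control 2 or 1.56 without control 1. Tagln showed the same order, at 419.5 and 273 CPM in the control libraries and 540.0 and 643 in mutants, with a log2 change of 0.71 ± 0.20, or 0.45 without control 2.

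The myosin genes were higher in both mutants too. Myl9 was at 408 and 407 CPM in the control libraries and 535 and 588 in mutants, with a log2 change of 0.42 ± 0.16 and nearly equal controls. Myh11 was at 37.6 and 4.78 CPM in the control libraries and 67.0 and 79.2 in mutants, a log2 change of 1.46 ± 0.43. Control 2 had only 2 Myh11 UMIs in its 42 mural-gated cells, and without that library the Myh11 log2 change was 0.91, against 3.81 without control 1.

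Actg2 had the widest gap, at 24.4 and 4.78 CPM in the control libraries and 97.8 and 68.3 in mutants, from 22, 2, 73 and 44 UMIs, with a log2 change of 2.21 ± 0.41 (1.73 to 4.01 with 1 library left out). Cnn1 had 2, 0, 4 and 6 UMIs and is given no fold. Lmod1 overlapped between groups, at 13.3, 4.78, 13.4 and 9.31 CPM. Cnn1 and Lmod1 did not pass the filter on low counts. Des went the other way, at 65.3 and 40.7 CPM in the control libraries and 9.38 and 32.6 in mutants, from 59, 17, 7 and 21 UMIs, with a log2 change of -1.47 ± 0.44 (-2.57 without mutant 2, -0.81 without mutant 1).

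**Figure D2:**
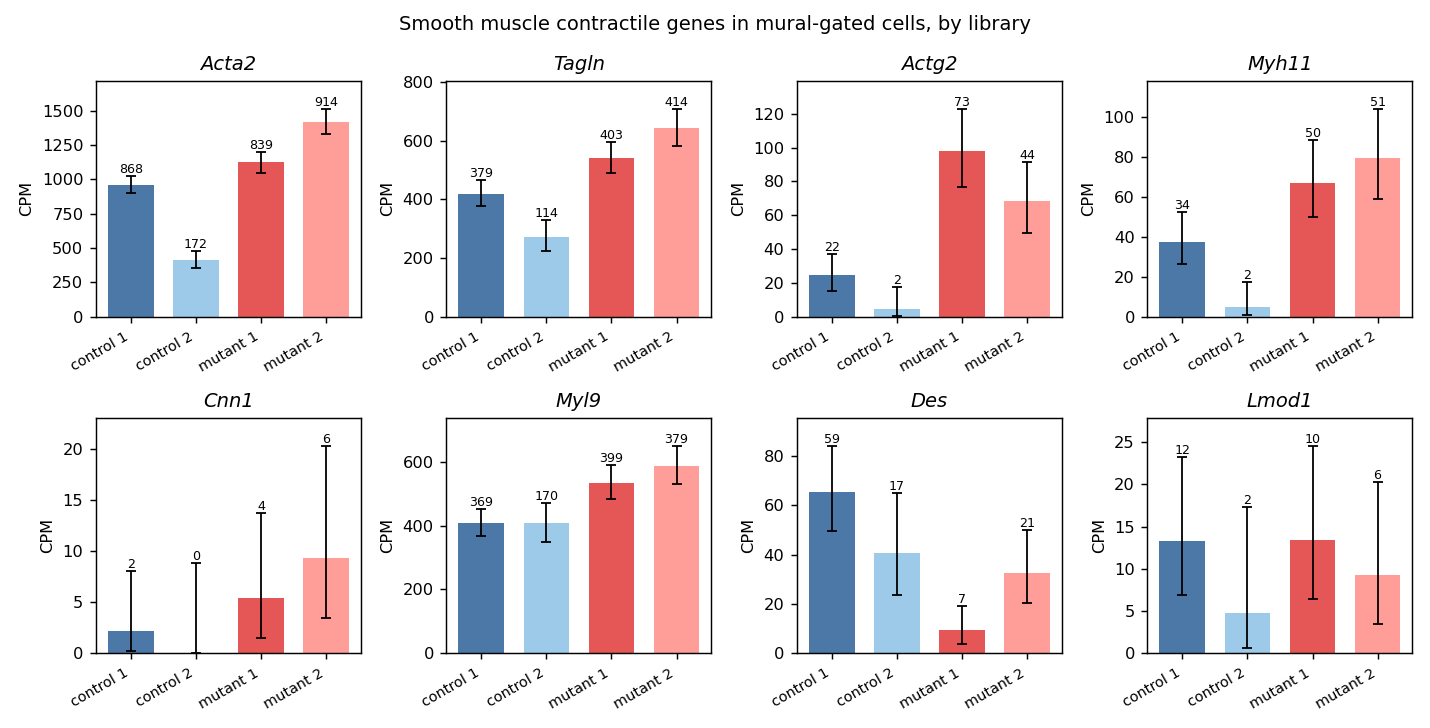
CPM of each contractile gene in mural-gated cells of each library, with UMI counts printed above exact 95% Poisson intervals that cover counting error only. Acta2 spans 411 to 1419 CPM, with both mutants above both controls, and Des shows the reverse order.

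Over all genes tested in mural cells, 59 of 8410 passed an edgeR adjusted p under 0.05, or 0.702%, with 18 higher and 41 lower in mutants. Of the 6 members tested 1 passed, Actg2, and since these members were picked on this contrast nothing is read from that count. The median log2 change of the 6 was 0.76, beside 0.00 over all genes tested, and it too is a description from which nothing is read. Actg2 and Myh11, at 4.78 CPM in control 2, passed the filter on low counts only with the mutant libraries, where they were high.

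For several members a few cells held much of the UMIs. The 3 mural-gated cells highest in a gene held 31.3% to 44.2% of Acta2 UMIs by library, 59.1% to 100% of Actg2 UMIs and 64.7% to 100% of Myh11 UMIs, the 100% being 2 UMIs in control 2 for each. Myl9 was spread more widely, with 20.9% to 33.0% in its top 3 cells and a UMI in 64 of 85, 32 of 42, 47 of 61 and 43 of 69 cells. Acta2 was undetected in 46 of 85, 26 of 42, 29 of 61 and 33 of 69 mural-gated cells. The 23, 11, 16 and 18 cells highest in Acta2 held 29.6%, 31.8%, 27.9% and 27.3% of all UMIs. They held 88.9%, 75.4%, 70.7% and 89.4% of Tagln UMIs. Of the 59, 17, 7 and 21 Des UMIs they held 35.6%, 35.3%, 71.4% and 57.1%. With every cell thinned to 3000 UMIs, Acta2 was detected in 41.0%, 23.8%, 40% and 42.6% of mural-gated cells, so control 1 lay beside both mutants and control 2 below. Tagln was detected in 33.7%, 33.3%, 31.7% and 33.8% of thinned cells, an overlap, although its CPM was higher in both mutants. Myl9 likewise overlapped, at 49.4%, 47.6%, 45% and 51.5%. The thinned shares of 3 members did not overlap: Myh11 was detected in 7.23%, 4.76%, 11.7% and 11.8% of cells, Actg2 in 6.02%, 0%, 8.33% and 10.3%, and Des in 15.7%, 11.9%, 1.67% and 8.82%. These shares rest on 0 to 13 cells in each library. Thinned shares were not computed for all genes, so nothing is read from the count of 3. Unthinned, Tagln was detected in 48.2%, 42.9%, 45.9% and 49.3% of cells. In immune-gated cells the thinned share for Tagln was 0% to 1.89%.

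**Figure D3:**
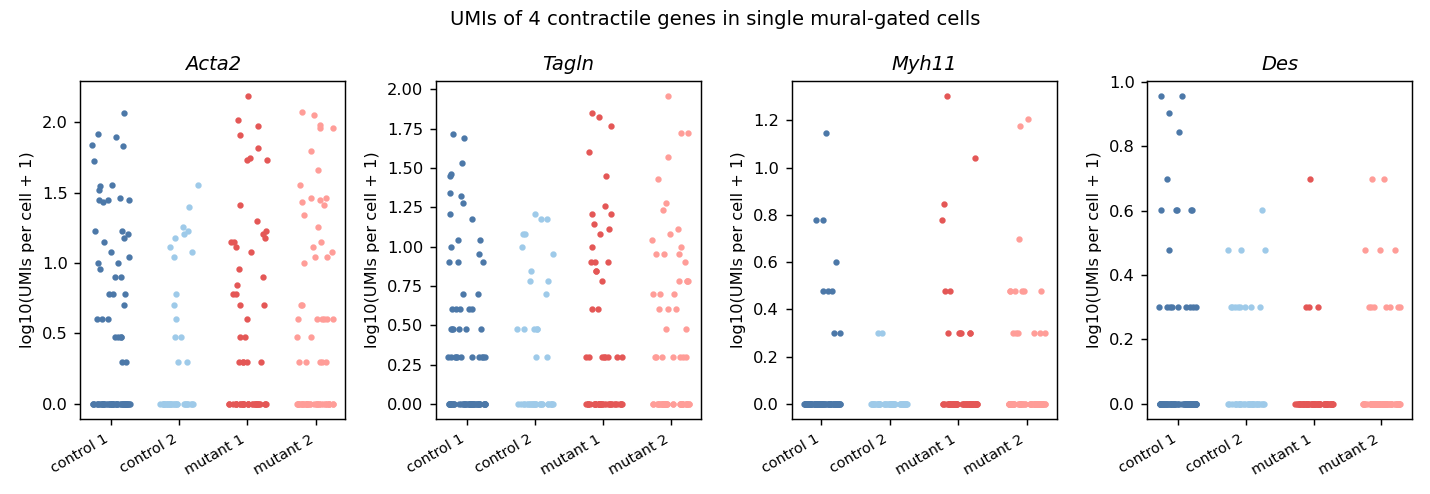
UMIs per mural-gated cell on a log10(UMIs + 1) axis for Acta2, Tagln, Myh11 and Des, with 1 point per cell and random sideways spread. Most cells sit at 0 for Myh11, and single cells reach 151 Acta2 UMIs in mutant 1 and 114 in control 1.

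Splitting mural-gated cells by mesenchyme markers, a split made after values were seen, changed the order of the groups. In the 198 cells with 3 mesenchyme markers, Acta2 was at 940.3, 411, 675 and 1201 CPM and Tagln at 432, 189, 356 and 589, and the groups overlapped for both. Myh11 overlapped too, at 34.1, 6.42, 19.5 and 72.9 CPM. Actg2 (22.3, 3.21, 34.5 and 74.8 CPM) and Myl9 (344, 289, 392 and 519.9 CPM) stayed higher in both mutants, and Des (41.9, 32.1, 10.5 and 19.2 CPM) stayed lower.
In the remaining 20, 13, 9 and 17 cells, Acta2 was at 1073 and 413 CPM in the control libraries, and at 4876 and 2344 in mutants. Tagln there was at 350.4, 517, 2081 and 871 CPM. For Des the groups overlapped there, at 193, 65.7, 0 and 89.5 CPM. These cells are few, and the 9 of mutant 1 alone held 389 Acta2 UMIs.

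Genes that work beside the members were tested from 6 lists of actins, filament partners, myosin regulators, attachment proteins, calcium handling and transcription factors, 64 genes in all. Of 52 tested in mural cells 1 passed, and their median log2 change was -0.10 beside 0.00 for all genes. That gene was Tagln2, the non-muscle relative of Tagln, at 335 and 349 CPM in the control libraries and 157 and 191 in mutants, a log2 change of -1.02 ± 0.19 (edgeR adjusted p = 0.019). With cells added that also reached 3 markers of another class, Tagln2 turned to 0.21 (edgeR adjusted p = 0.788). In that setting 0 of 11092 genes passed. The cytoplasmic actins Actb (log2 -0.28 ± 0.14, edgeR adjusted p = 0.587) and Actg1 (0.16 ± 0.13, adjusted p = 0.803) did not pass. Nor did Cald1, which restrains actomyosin (-0.36 ± 0.17, edgeR adjusted p = 0.544), Tpm1 (0.11 ± 0.16, adjusted p = 0.916), the light chains Myl6 (-0.15 ± 0.14, adjusted p = 0.832) and Myl12a (-0.39 ± 0.16, adjusted p = 0.439), or the TEAD factor Tead1 (-0.04 ± 0.18, adjusted p = 0.981). Vim, Itgb1, Prkg1, Cacna1c and Mrtfb, the other most abundant genes of these lists, had log2 changes from -0.26 (Itgb1) to 0.14 (Mrtfb) and did not pass either.

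The list of pericyte genes outside the gate overlaps results already known for these libraries. Its values are thus a description, with no p-value and as support for nothing. Of its 9 genes tested, 3 were lower in mutants and passed and 6 did not pass, with a list median of -1.16. Beside 59 of 8410 genes tested, nothing is read from that count. Vtn, which encodes vitronectin, was at 261 and 478 CPM in the control libraries and 18.8 and 21.7 in mutants (log2 -4.19 ± 0.34). Tbx18 was at 105, 222, 26.8 and 43.5 CPM (log2 -2.20 ± 0.36) and Clstn2 at 123, 189, 33.5 and 29.5 CPM (log2 -2.29 ± 0.29). With the cells of more than 1 class added, the log2 changes were -4.24 for Vtn, -1.91 for Tbx18 and -1.44 for Clstn2. None of these passed in that setting, where 0 of 11092 genes passed. The summed level of the 10 pericyte genes was 951 and 1311 CPM in the control libraries and 363 and 517 in mutants. The 8 fibroblast genes summed to 6664, 5247, 5494 and 6020 CPM, an overlap, and 11 sarcomere genes to 34.3, 14.3, 29.5 and 32.6 CPM. The part that a different make-up of the mural gate plays in the member values was not tested.

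In mesenchyme-gated cells (2612, 1762, 2007 and 2646 in number) no member passed the test between genotypes. Of 15803 genes 0 passed in edgeR, or 0%, while 1264 had an unadjusted p under 0.05. DESeq2, run without the edgeR filter on low counts, called 61 of 24696. All 8 members were tested and 0 passed, with 0 under an unadjusted 0.05. Acta2 was at 42.4, 103, 49.3 and 40.3 CPM (log2 -0.72 ± 0.35, edgeR adjusted p = 0.641), with control 2 apart from the other libraries. Tagln was at 43.6, 79.6, 55.3 and 40.8 CPM (log2 -0.38 ± 0.27, edgeR adjusted p = 0.75). Control 2 thus had the highest Acta2 in mesenchyme and the lowest in mural cells.
Myl9 was at 107, 107, 122 and 121 CPM (log2 0.14 ± 0.09, edgeR adjusted p = 0.72), a small gap between groups whose libraries lay close together. Cnn1 was at 1.38, 1.54, 2.89 and 2.06 CPM (log2 0.73 ± 0.32, edgeR adjusted p = 0.621). Actg2 (0.48 ± 0.45), Myh11 (0.33 ± 0.27), Des (0.18 ± 0.35) and Lmod1 (-0.10 ± 0.33) had edgeR adjusted p-values from 0.783 to 0.966.

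A small set of cells held most mesenchymal Acta2. Among mesenchyme cells thinned to 3000 UMIs, 46 of 2525, 70 of 1714, 28 of 1951 and 49 of 2428 kept at least 2 Acta2 UMIs, or 1.82%, 4.08%, 1.44% and 2.02%. They held 67.7%, 76.9%, 75.4% and 69.9% of the Acta2 UMIs of those cells. Tagln was at 453, 495, 1151 and 366 CPM in them and at 31.4, 44.1, 29.3 and 27.6 in cells with no Acta2 UMI. Tnmd, a tendon gene, was at 381, 148, 452 and 251 CPM in them and at 26.7, 24.4, 26.2 and 23.2 in cells with no Acta2 UMI. Tendon genes were not alone in this. The collagen gene Col1a1 was at 4931, 4356, 4742 and 5277 CPM, against 1747, 1675, 1286 and 1569. Rgs5, a pericyte gene of the mural gate that these cells had not passed, was at 0, 1.30, 12.3 and 4.88 CPM in them. It was at 0.841, 0.739, 1.81 and 1.89 CPM in cells with no Acta2 UMI. Mural-gated cells, which that gate selects partly by Rgs5, had 459.5 to 1107 CPM. These cells and the genes named for them were chosen after values were seen.

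Skeletal muscle-gated cells numbered 28, 26, 13 and 15, too few for the fit that needed 20 in every library, so values only are given. Acta2 was at 1556, 1361, 2129 and 1033 CPM and Des between 237 and 389, and both overlapped between groups. Tagln was lower in both mutants, at 268, 304, 207 and 225 CPM, as was Myl9, at 90.0, 89.6, 55.5 and 69.4, without a test. Actg2, Myh11, Cnn1 and Lmod1 had 0 to 2 UMIs in each library there, at or under the 3 counts taken as the limit for a count of 0.

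Over all kept cells, where no gate enters, 0 of 18080 genes passed in edgeR, or 0%, with 883 under an unadjusted 0.05. DESeq2, run without the edgeR filter on low counts, called 30 of 26537. No member passed. Actg2 was at 2.94 and 3.79 CPM in the control libraries and 8.76 and 4.87 in mutants (log2 0.99 ± 0.33, edgeR adjusted p = 0.909). Myh11 was at 3.03, 2.23, 4.57 and 4.47 CPM (0.73 ± 0.23) and Des at 7.16, 9.26, 5.43 and 4.61 CPM (-0.74 ± 0.21), each with an edgeR adjusted p of 0.909. Mural cells are among the cells summed here, so these 3 directions are no separate support for theirs. For Des, skeletal muscle held 57.8% of UMIs and mural cells 14.5%, and skeletal muscle-gated cells made up 0.687%, 1.05%, 0.434% and 0.358% of kept cells, lower in both mutants. The part of that share in the Des values was not tested. Acta2, at 77.9, 119, 85.9 and 79.8 CPM, overlapped between groups.

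**Figure D4:**
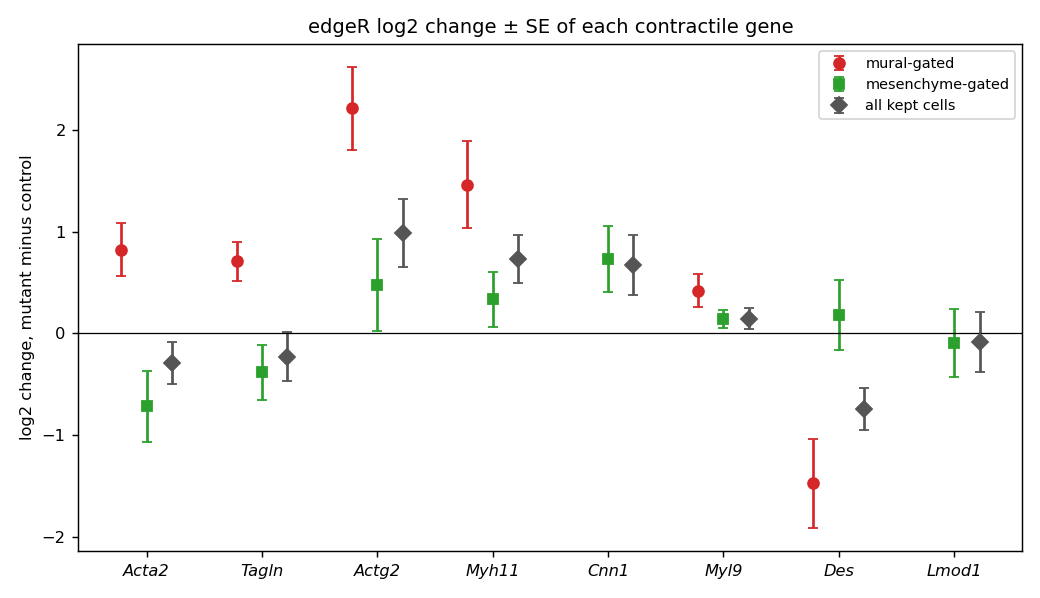
edgeR log2 change (mutant minus control) for each contractile gene in mural-gated, mesenchyme-gated and all kept cells, from 2 libraries a group. Bars are SEs derived from the F statistic of the edgeR test. Actg2 is highest in mural cells at 2.21, Des lowest at -1.47, and Acta2 lies above 0 in mural cells and below 0 in mesenchyme.

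The likeness of the members' patterns was measured over 32 points, 8 classes by 4 libraries, which share depth within a library. Skeletal muscle and neurons, with under 20 cells in some libraries, were not among these classes. Of the 28 pairs of members 26 had r of 0.50 or more, with a median of 0.68. The share of such pairs over all genes was not computed, so nothing is read from that count. Acta2 correlated with Tagln at r = 0.91 and with Actg2 at 0.87 on the log2(CPM + 10) scale, and the lowest pair was Cnn1 with Des at 0.25, with Cnn1 near the counting floor. The non-member genes most like the mean member profile were Naalad2 (r = 0.91), Sema5b (0.90), Dgkb (0.90), Adamts15 (0.89) and Lin7a (0.89), then Gm13470 (0.87), Cox4i2 (0.87), Rasl12 (0.87), Kcnj8 (0.87) and Trac (0.86), among 12223 genes ranked. Cox4i2 and Kcnj8 are mural gate markers.

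The genes lie apart in the genome (GRCm38). Acta2 is at chr19:34241090-34255590, Tagln at chr9:45929619-45936058, Actg2 at chr6:83512905-83536265 and Myh11 at chr16:14194535-14291372, all on the minus strand. On the plus strand are Cnn1 at chr9:22099216-22109630, Myl9 at chr2:156775420-156781658, Des at chr1:75360329-75368579 and Lmod1 at chr1:135324807-135368065. Tagln overlaps Gm48529 by 3627 bases and Pcsk7 by 108, and Des overlaps Gm15179 by 368, each on the opposite strand.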

How the data were processed

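The authors deposited a filtered UMI count matrix per library, with raw counts of 32285 genes, per the file headers made with Cell Ranger 8.0.1. The submitters' processing notes list Cell Ranger 4, Seurat 4.3.0 and mm10, and which made these counts is not settled. The cell filter was 500 detected genes or more with mitochondrial UMIs of 10% or less, and 34 barcodes were shared by libraries before filtering. Scrublet's own threshold marked at most 4 cells a library and had not worked, so doublets were not removed, except in an alternative that removed 0.8% per 1000 barcodes by score. UMI counts were summed per library and class, CPM scales each class sum to 1e+06 UMIs, and edgeR 4.0.16 (TMM, filterByExpr, quasi-likelihood, Benjamini-Hochberg, threshold 0.05) tested genotype over 2 against 2 libraries. DESeq2 1.42.0 was an alternative. Fits were tested on simulated data. The members and lists were chosen with earlier results of these data known. Named genes were all members, list genes past the threshold or otherwise up to 2 a list by mural CPM, and the 10 genes most like the members. Library numbers share only a number, and same-numbered libraries' deviations correlated at 0.09 in mural cells. Intervals are exact and cover counting error only.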

Additional observations from a re-analysis of the deposited data

Results flagged for a closer look

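Among members with at least 100 UMIs in a class, some differed in opposite directions between classes, with every library of a group on one side, and these differences between classes were not tested. The log2 ratios of mean CPM, mutant over control, were 0.89 in mural cells and -1.22 in chondrocytes for Acta2. Without control 2 they were 0.40 and -0.26, and without control 1 the mural value was 1.63. For Tagln they were 0.77 in mural cells, -0.41 in skeletal muscle and -0.90 in epithelium. Epithelial Tagln was at 18.8 and 50.1 CPM in control libraries against 18.6 and 18.4 in mutants, so the epithelial value rested on control 2 and was -0.03 without it. Without control 2 the mural value for Tagln was 0.50. For Myl9 they were 0.46 in mural cells, 0.18 in mesenchyme, 0.26 in chondrocytes and -0.52 in skeletal muscle, and the chondrocyte value for Myl9 was 0.13 without mutant 1.

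Cells that reached no gate also held Acta2. Control libraries had 11.8 and 14.6 CPM and mutant libraries 59.2 and 54.3, from 15, 13, 53 and 78 UMIs in cells with a median of 2527 to 3984 UMIs. These cells have no class, and the difference was not tested.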

How the results depend on the processing

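The members were chosen on the mural contrast and the alternatives reuse its libraries, so a kept direction there is no support. No sign of the log2 change turned for the 6 members fitted in mural cells under 17 alternatives each. A kept sign did not mean that the groups stayed apart, and with other gates several overlapped. With 1 library left out Acta2 ran from 0.36 without control 2 to 1.56 without control 1, Myh11 from 0.91 to 3.81, Actg2 from 1.73 to 4.01 and Des from -2.57 to -0.81. The lowest values of Myh11 (0.83, cells with 3 mesenchyme markers) and Actg2 (1.44, gate of 2) came from other gates, and so did both ends for Myl9, 0.31 with a gate of 2 and 0.59 with a gate of 4. With a gate of 2 the groups overlapped for Acta2 (517, 252, 373 and 816 CPM) and Myl9 (271, 211, 246 and 386 CPM). Tagln, Myh11 and Des overlapped there too, and of the 6 only Actg2 stayed higher in both mutants. With a gate of 4 Des overlapped, while Acta2, Tagln, Actg2, Myh11 and Myl9 stayed higher in both mutants. The count of members past the threshold, 1 in the main fit, was 5 with no filter on low counts, 5 with the replicate block, 2 with a gate of 4 markers and 4 without Rgs5 in the gate. It was 0 with the DESeq2 Wald test, a mitochondrial limit of 5%, a gate of 2 markers, cells with 3 mesenchyme markers, or ambiguous cells added. Fits with a library left out have 1 library in a group, so their counts are not given. For partner genes, 1 in the main fit, the count was 3 with no filter, 3 with the replicate block, 3 with a gate of 4 and 2 without Rgs5. It was 0 with a 5% limit, doublets removed, a gate of 2 or ambiguous cells added, and 0 to 7 with a library left out. Genes passing in mural cells numbered 342 of 8410 with the block and 265 of 17710 with no filter, beside 59 of 8410. They numbered 153 of 6542 with a gate of 4 and 111 of 8057 without Rgs5. Calls over all genes thus rose in the settings where more members passed. DESeq2, run with no filter on low counts, called 24 of 17710. Genes passing numbered 12 of 8294 with the 5% limit and 14 of 10370 with a gate of 2. They numbered 39 of 7907 in cells with 3 mesenchyme markers, 47 of 7965 with doublets removed and 0 of 11092 with ambiguous cells added. Replicate numbers are shared without pairing the libraries.

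In mesenchyme 2 members passed with no filter, where 595 of 24696 genes passed, beside 0 of 15803 in the main fit. Over all cells no member passed in any alternative that kept every library. With a library left out, mesenchyme changes ran from -1.23 to 0.05 for Acta2, -0.76 to 0.11 for Tagln (both turned without control 2), -0.37 to 0.98 for Actg2, -0.01 to 0.33 for Des and -0.56 to 0.26 for Lmod1 (turned without mutant 1). Over all cells they ran from -0.57 to 0.06 for Acta2, -0.56 to 0.20 for Tagln and -0.43 to 0.20 for Lmod1. A gate of 4 gave -0.09 for Des in mesenchyme. The mural share difference, -0.051 percentage points, was 0.342 with a gate of 2 and -0.247 to 0.145 with a library left out. The cause of each shift was not tested. The fit in skeletal muscle was not run, since both mutants had under 20 cells. Ambiguous cells and the mesenchyme-marker split were alternatives chosen after seeing the data.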
